A study of Mus musculus with 6 samples.

Results

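Aminoacyl-tRNA synthetases are the enzymes that attach each amino acid to its own tRNA, and their genes were followed in mouse melanoma cells of the pigmented line B16F10, cultured with GSK126 or with the vehicle DMSO. The family was taken by gene symbol as 39 of the 54838 genes in the files: 20 enzymes of the cytosol, 16 of the mitochondrion and 3 scaffold proteins of the cytosolic synthetase complex. It was chosen by name with the response to GSK126 in these same libraries already known. The fold changes and calls of its members therefore describe them and are not independent evidence. GSK126 inhibits EZH2, the subunit of Polycomb repressive complex 2 that methylates lysine 27 of histone H3. There were 3 libraries of GSK126-treated cells (10 µM) and 3 of DMSO-treated cells, all of the same line and with no genetic change named. The labels give 2 culture media as alternatives, DMEM or RPMI-1640, without saying which of them these cells had, and give no duration of treatment. They do not say that replicates were separate cultures, so the spread behind each p-value may be technical.

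Each synthetase recognises an amino acid and the tRNAs that belong to it, and joins them at the expense of ATP. The charged tRNA is what the ribosome reads, so every cell needs a full set of these enzymes. Mammalian cells keep one set for the cytosol and another, encoded by separate nuclear genes, for translation of the mitochondrial genome. Glycyl- and lysyl-tRNA synthetase are exceptions, since a single gene (Gars and Kars) supplies both compartments. Glutamine is another, since mitochondrial glutaminyl-tRNA is made by an amidotransferase. Glutamyl- and prolyl-tRNA synthetase are fused in the cytosol into a single protein, encoded by Eprs. Several cytosolic enzymes are held together in a multi-synthetase complex by the scaffold proteins that Aimp1, Aimp2 and Eef1e1 encode. Many cytosolic synthetase genes are known targets of ATF4, a transcription factor made when uncharged tRNA or other stresses activate the eIF2α kinases.

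The libraries held between 13594939 and 14713373 counts, and all 39 members passed the filter on low counts that left 13601 genes. Members of the cytosolic set had 380 to 10340 reads per library and those of the mitochondrial set 59 to 1514. The label of a melanocytic line was met by its markers, since all 8 melanocyte genes examined were tested, with summed reads of 345113 to 359067 in GSK126 libraries and 302161 to 321508 in DMSO libraries. Of these, 4 were called higher with GSK126 (Mitf, Pmel, Dct and Sox10) and 1 lower (Mlana). The calls of Dct and Sox10 ended with any library but GSK126 replicate 3 left out, and that of Mlana without DMSO replicate 1 or 2 or GSK126 replicate 1 (adjusted p of up to 0.138). Leukocyte markers summed to 0 to 16 reads in GSK126 libraries and 0 in DMSO libraries, with 3 of 5 at 0 in every library. Endothelial markers summed to 3 to 10 reads with GSK126 and 4 to 9 with DMSO, and 3 of 4 were at 0 throughout. Epithelial markers summed to 4 to 17 reads with GSK126 and 6 to 24 with DMSO, with 1 of 4 at 0. Fibroblast markers summed to 243 to 321 reads with GSK126 and 312 to 349 with DMSO, mostly from Col1a2, with 0 of 5 at 0. The part of these marker levels in the results was not tested. GSK126 replicate 3 stood somewhat apart from replicates 1 and 2 of its group. It was the lowest of the 3 for 14 of 20 cytosolic members, where it deviated from replicates 1 and 2 by a median log2 difference of -0.08, and the median difference was -0.13 for the scaffold genes (lowest in 2 of 3), 0.00 for mitochondrial members and 0.00 over all tested genes.

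Transcripts of most cytosolic synthetases were lower in GSK126-treated cells. Of the 20 cytosolic genes, 13 were called lower, 0 higher and 7 did not pass the test (edgeR's quasi-likelihood F test with p adjusted by Benjamini-Hochberg over all 13601 genes, threshold 0.05). No cytosolic gene was higher at an unadjusted p below 0.05 either, or with DESeq2 or limma-voom. Over all tested genes, 5.18% were called lower and 5.87% higher. The called genes fell by amounts between 14.1% and 28.5%, so each change was small, while the standard errors of the cytosolic log2 fold changes were 0.04 to 0.07. All 3 GSK126 samples lay below all 3 DMSO samples for 17 of the 20, and the groups overlapped for Dars, Hars and Qars. In the whole table all GSK126 samples lay below all DMSO samples for 16.8% of genes and above them for 17.6%. The median log2 fold change was -0.31 over the cytosolic genes and 0.00 over all tested genes. Since these are RNA pools of whole cultures, fewer cells that express a gene and less RNA per cell cannot be told apart. With GSK126 replicate 3 left out, 11 cytosolic genes were still called lower, and their median was -0.27.

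**Figure D1:**
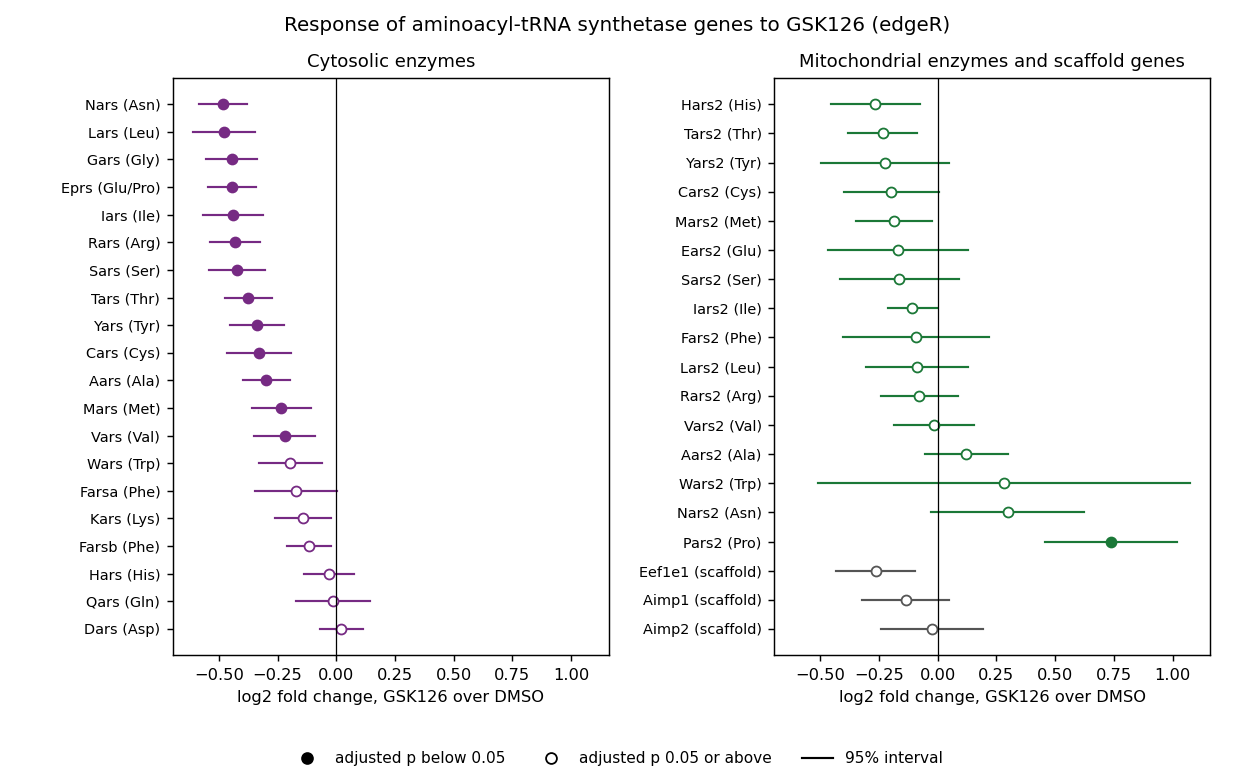
Log2 fold change of GSK126 over DMSO (horizontal axis) for each of the 39 genes, in panels by compartment, with the amino acid in brackets. Points are edgeR estimates, lines their 95% intervals, filled points have an adjusted p below 0.05. The 13 filled cytosolic points all lie left of 0, and the only filled mitochondrial point, Pars2, lies right of it.

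The most abundant members per transcript length were Gars and Nars. By the authors' FPKM, Gars averaged 146 ± 3.55 in GSK126 cells and 198 ± 8.81 in DMSO cells, and Nars 142 ± 6.71 in GSK126 cells and 197 ± 1.29 in DMSO cells (SD, n = 3). Their levels in DMSO cells did not differ beyond this spread. Rars came next with 53.4 ± 2.44 FPKM in GSK126 cells and 71.8 ± 0.728 in DMSO cells, and Sars had 48.7 ± 2.84 FPKM in GSK126 cells and 65.1 ± 1.81 in DMSO cells. The medians of the sets in DMSO cells were 40.2 FPKM for the cytosolic enzymes (range 4.73 to 198), 3.004 for the mitochondrial ones (0.699 to 15.03) and 8.81 for the scaffold genes. Qars, at 5.13 ± 0.189 FPKM in GSK126 cells and 5.17 ± 0.410 in DMSO cells, and Farsa, at 4.22 ± 0.246 in GSK126 cells and 4.73 ± 0.182 in DMSO cells, were the lowest of the cytosolic set. The highest mitochondrial member, Rars2, had 14.3 ± 0.183 FPKM in GSK126 cells and 15.03 ± 1.14 in DMSO cells, and the lowest of all 39 was Pars2.

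Nars, the asparaginyl-tRNA synthetase, had the smallest p in the family. It had 372, 389 and 356 CPM (counts scaled to library size by TMM) in GSK126 samples, against 516, 523 and 523 CPM in DMSO samples. Every GSK126 sample was below every DMSO sample by far more than the spread of either group, and the log2 fold change was -0.48 (SE 0.04, edgeR adjusted p = 0.00144). Eprs (GRCm38 chromosome 1, 185363044 to 185428360), which charges tRNAs with glutamate and with proline, had 451, 427 and 456 CPM in GSK126 samples and 613, 615 and 585 CPM in DMSO samples. Its log2 fold change was -0.44 (SE 0.04, edgeR adjusted p = 0.00165). Gars (chromosome 6, 55038007 to 55079500), which supplies glycyl-tRNA to cytosol and mitochondria alike, had 545, 526 and 527 CPM in GSK126 samples and 708, 702 and 766 CPM in DMSO samples. With all libraries the log2 fold change was -0.45 (SE 0.05, edgeR adjusted p = 0.00218). DMSO replicate 3 was the highest of its group, and the groups were apart without it too (log2 fold change -0.41, edgeR adjusted p = 0.00793).

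Rars, the arginyl enzyme of the complex, averaged 211 ± 9.45 CPM in GSK126 cells and 285 ± 2.65 CPM in DMSO cells (SD, n = 3). The single samples were 208, 222 and 204 CPM with GSK126 and 283, 288 and 285 CPM with DMSO, for a log2 fold change of -0.43 (SE 0.05, edgeR adjusted p = 0.00235). Lars, the leucyl enzyme, which also acts as a leucine sensor upstream of mTORC1, had 141, 142 and 127 CPM in GSK126 samples and 194, 184 and 195 CPM in DMSO samples. It shared with Nars the largest fall of the cytosolic set (log2 fold change -0.48, SE 0.06, edgeR adjusted p = 0.00384), and its lowest value was GSK126 replicate 3. Iars, the isoleucyl enzyme (chromosome 13, 49682100 to 49734267), had 226, 253 and 243 CPM in GSK126 samples and 328, 338 and 315 CPM in DMSO samples. The GSK126 samples differed among themselves by less than the gap between the groups (log2 fold change -0.44, SE 0.05, edgeR adjusted p = 0.00466).

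Tars, the threonyl enzyme (chromosome 15, 11382301 to 11399665), had 151, 148 and 142 CPM in GSK126 samples, against 189, 192 and 189 CPM in DMSO samples. It fell by 0.37 on the log2 scale (SE 0.04, edgeR adjusted p = 0.00315). Sars, the seryl enzyme, which also charges the selenocysteine tRNA with serine, had 323, 329 and 297 CPM in GSK126 samples and 433, 411 and 427 CPM in DMSO samples (log2 fold change -0.42, SE 0.05, edgeR adjusted p = 0.00427). In both genes the replicates of each group lay close together. These 8 genes, with Aars and Yars, kept their calls when any single library was left out.

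The other 5 called genes had smaller folds. Aars, the alanyl enzyme, had 493, 489 and 457 CPM in GSK126 samples and 595, 591 and 582 CPM in DMSO samples (log2 fold change -0.30, SE 0.04, edgeR adjusted p = 0.00773). The tyrosyl enzyme gene Yars averaged 101.4 ± 4.41 CPM in GSK126 cells and 128 ± 0.935 CPM in DMSO cells (SD, n = 3; log2 fold change -0.34, SE 0.05, edgeR adjusted p = 0.00782). Its call is uncertain, because Yars shares 30 bp of exons on the opposite strand with C77080, which was called higher (log2 fold change 0.35, SE 0.07), and the sources used here do not give the strand setting of the counts. Summed, Yars and C77080 missed the threshold (log2 fold change 0.01, SE 0.04, edgeR adjusted p = 0.923). This sum cannot decide the matter, because both genes had similar reads (9678 for Yars and 9773 for C77080 over all libraries). Their opposite changes cancel in it however the shared reads were assigned. The cysteinyl enzyme gene Cars had 125, 135 and 118 CPM with GSK126 and 158, 156 and 161 CPM with DMSO (log2 fold change -0.33, SE 0.06, adjusted p = 0.0149). Its call ended without DMSO replicate 1, 2 or 3 or without GSK126 replicate 1, at adjusted p of up to 0.0619.

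Mars, the methionyl enzyme, which charges initiator as well as elongator tRNA, had 110.1, 102.9 and 99.0 CPM in GSK126 samples and 124, 122 and 121 CPM in DMSO samples (log2 fold change -0.23, SE 0.05, edgeR adjusted p = 0.0344). It shares 68 bp of exons on the opposite strand with Ddit3, the stress factor CHOP, which was called lower as well (log2 fold change -0.29, SE 0.05). Their summed counts still passed (log2 fold change -0.25, SE 0.05, edgeR adjusted p = 0.0167). Both genes were lower, so their sum was bound to be lower too and does not show how shared reads were assigned. The Mars call ended without DMSO replicate 1, 2 or 3 or without GSK126 replicate 2 or 3, at adjusted p of up to 0.117. Vars, the valyl enzyme, was the last called, with 119, 119.8 and 113 CPM in GSK126 samples and 132, 132 and 145 CPM in DMSO samples (log2 fold change -0.22, SE 0.06, adjusted p = 0.0466). This call ended with any of the 6 libraries left out (adjusted p from 0.0853 to 0.129) and with DESeq2 (adjusted p = 0.0550).

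Counted by amino acid, 14 of the 20 had a cytosolic enzyme called lower, with Eprs standing for glutamate and proline. The other 6 were aspartate, glutamine, histidine, lysine, phenylalanine and tryptophan. Qars, the glutaminyl enzyme and the cytosolic gene with the largest p, had 87.5, 87.8 and 82.8 CPM in GSK126 samples and 94.6, 83.1 and 83.1 CPM in DMSO samples. The groups overlapped, DMSO replicate 1 alone was higher than all others, and the 95% interval of the log2 fold change ran from -0.17 to 0.14 (edgeR adjusted p = 0.909). Dars, the aspartyl enzyme, averaged 218 ± 4.27 CPM in GSK126 cells and 215 ± 1.91 CPM in DMSO cells, with an interval of -0.07 to 0.11. Hars, the histidyl enzyme, had 96.6, 95.9 and 97.5 CPM in GSK126 samples and 99.96, 100.2 and 96.0 CPM in DMSO samples, which overlapped, with an interval of -0.14 to 0.08. For these 3 genes the intervals did not reach the cytosolic median of -0.31. Among the other uncalled genes, those of Kars (-0.26 to -0.02) and Farsb (-0.21 to -0.02) did not reach it either, but lay below 0. The intervals of Wars (-0.33 to -0.06) and Farsa (-0.35 to 0.003) held it.

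In the remaining 4 cytosolic genes all GSK126 samples lay below all DMSO samples without passing the test. Wars, the tryptophanyl enzyme, averaged 72.9 ± 1.40 CPM in GSK126 cells and 83.5 ± 4.51 CPM in DMSO cells (SD, n = 3; log2 fold change -0.20, SE 0.06, edgeR adjusted p = 0.0743). Kars, the lysyl enzyme of cytosol and mitochondria, averaged 185 ± 7.11 CPM in GSK126 cells and 204 ± 8.25 CPM in DMSO cells (adjusted p = 0.119). Farsa and Farsb encode the α and β subunits of the phenylalanyl enzyme, whose tetramer needs both. Farsa averaged 28.0 ± 1.58 CPM in GSK126 cells and 31.5 ± 1.08 CPM in DMSO cells (log2 fold change -0.17, SE 0.07). Farsb averaged 132 ± 1.78 CPM in GSK126 cells and 143 ± 0.466 CPM in DMSO cells (log2 fold change -0.12, SE 0.04). Per length, Farsb stood at 37.1 ± 0.689 FPKM in GSK126 cells and 40.1 ± 0.0639 in DMSO cells, well above the FPKM of Farsa.

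**Figure D2:**
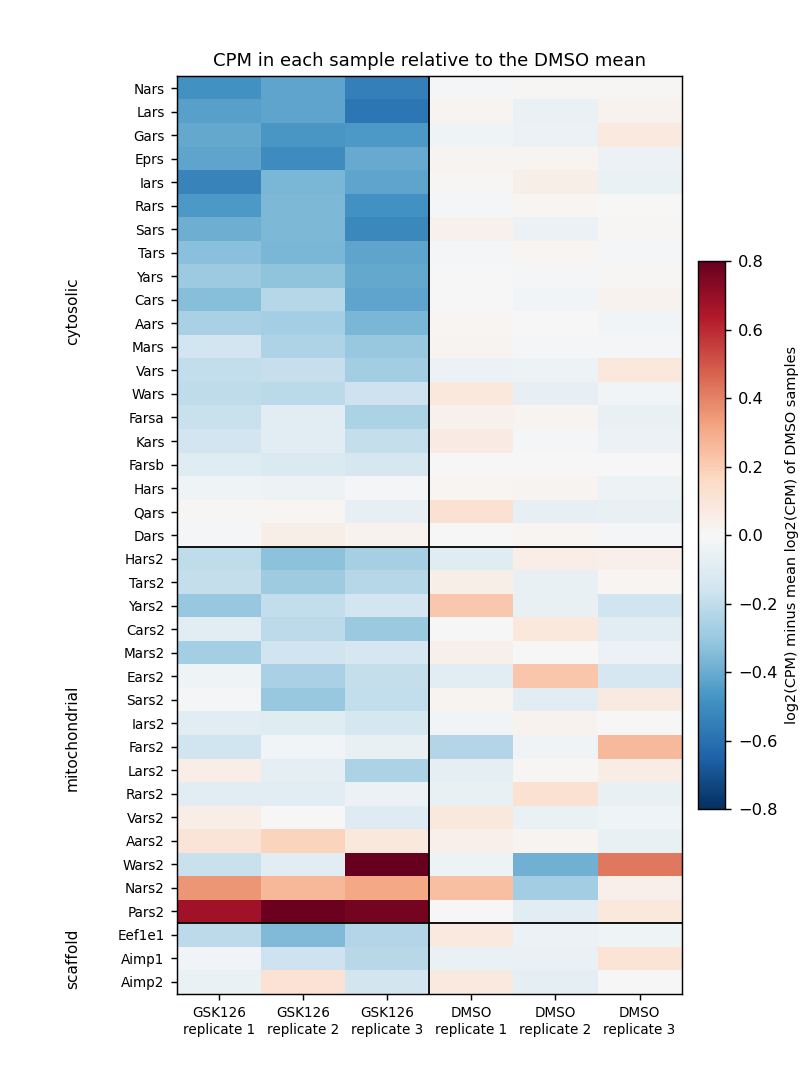
CPM of the 39 genes (rows) in the 6 samples (columns), as log2 difference from the mean of the DMSO samples, blue for lower and red for higher, with colours ending at 0.8 in either direction. Rows from Nars to Vars, the 13 genes called lower, are blue in all 3 GSK126 samples, while Wars2 is red in GSK126 replicate 3 and DMSO replicate 3 alone.

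Synthetases fall into class I and class II, which have unrelated catalytic domains, and the lower transcripts came from both. Among cytosolic genes, 7 of 9 of class I and 5 of 10 of class II were called lower, with median log2 fold changes of -0.33 and -0.23, and Eprs, which has a domain of each class, was called too. The 8 enzyme genes of the multi-synthetase complex included 5 called lower (Eprs, Iars, Lars, Mars and Rars; median log2 fold change over all 8 of -0.33), and the 12 outside it included 8 (median -0.31). Whether these subsets differ was not tested.

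The promoters of some of these genes carry the letters of a C/EBP-ATF response element, the composite site to which ATF4 binds with a C/EBP partner. RefSeq windows on GRCm38.p6, from 250 bases before to 50 after each transcription start, were matched for 29 of the 39 members. Cars, Hars, Lars, Mars, Nars, Rars, Vars, Wars, Hars2 and Pars2 had no window. The core TGATGNAA was searched on both strands, where N is any base, so that a match on the opposite strand reads TTNCATCA. The windows of the 5 cytosolic genes that hold it follow, 5′ to 3′ on the gene's strand, in lower case with each match in capitals. Gars, Iars and Tars are shown by the rule for named genes, and Aars and Yars were added after their values were seen. The windows are chr6:55037751-55038050 (plus strand) for Gars, chr13:49681880-49682179 (plus) for Iars, chr15:11399609-11399908 (minus) for Tars, chr8:111033592-111033891 (plus) for Aars and chr4:129189653-129189952 (plus) for Yars.
Gars: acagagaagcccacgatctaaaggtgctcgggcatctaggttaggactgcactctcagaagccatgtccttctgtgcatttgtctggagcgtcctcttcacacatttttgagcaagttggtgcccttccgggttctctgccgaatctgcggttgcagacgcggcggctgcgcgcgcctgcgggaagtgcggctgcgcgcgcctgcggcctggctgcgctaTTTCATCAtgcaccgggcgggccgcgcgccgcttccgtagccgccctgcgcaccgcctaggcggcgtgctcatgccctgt
Iars: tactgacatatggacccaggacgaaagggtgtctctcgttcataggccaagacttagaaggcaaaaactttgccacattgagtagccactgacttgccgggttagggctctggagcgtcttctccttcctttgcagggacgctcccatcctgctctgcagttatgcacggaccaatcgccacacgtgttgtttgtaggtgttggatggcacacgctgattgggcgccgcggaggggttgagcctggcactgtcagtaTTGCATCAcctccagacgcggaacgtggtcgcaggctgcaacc
Tars: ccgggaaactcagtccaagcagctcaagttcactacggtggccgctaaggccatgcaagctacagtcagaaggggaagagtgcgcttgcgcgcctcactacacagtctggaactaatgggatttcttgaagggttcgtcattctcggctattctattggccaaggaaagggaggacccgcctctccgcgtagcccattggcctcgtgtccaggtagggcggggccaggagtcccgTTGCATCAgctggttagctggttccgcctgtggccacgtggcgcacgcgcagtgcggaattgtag
Aars: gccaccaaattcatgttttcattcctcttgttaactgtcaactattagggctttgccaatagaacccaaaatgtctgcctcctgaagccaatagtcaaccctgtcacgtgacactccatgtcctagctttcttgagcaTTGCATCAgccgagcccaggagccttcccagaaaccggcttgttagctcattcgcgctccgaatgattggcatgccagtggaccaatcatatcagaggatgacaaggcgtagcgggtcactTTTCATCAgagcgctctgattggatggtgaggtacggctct
Yars: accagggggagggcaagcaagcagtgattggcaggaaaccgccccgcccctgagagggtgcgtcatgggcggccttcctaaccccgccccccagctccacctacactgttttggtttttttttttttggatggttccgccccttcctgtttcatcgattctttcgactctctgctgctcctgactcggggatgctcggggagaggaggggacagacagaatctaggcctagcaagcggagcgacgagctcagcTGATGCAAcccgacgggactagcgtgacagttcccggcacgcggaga
In Gars the match lies from -30 to -23 relative to the start, in Tars from -15 to -8, in Iars from 8 to 15 and in Yars from 4 to 11. Aars has 2 matches, from -112 to -105 and from 10 to 17. The Yars match is on the gene's strand and the others are on the opposite strand. The Aars window lies inside the gene's span in the files, downstream of the start they give.

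Counted by gene, the core was present for 5 of the 12 cytosolic genes with a window (41.7%), for 0 of 14 mitochondrial and for 0 of 3 scaffold genes. Over all genes with a RefSeq window of this length it was present for 1219 of 27025 (4.51%), and over the tested ones for 258 of 9579 (2.69%). Among cytosolic genes with a window, 5 of 7 called lower held it (Yars, whose call is uncertain, among them, but neither Eprs nor Sars), against 0 of the 5 that were not called (Dars, Farsa, Farsb, Kars and Qars). Of all tested genes called lower, 33 of 528 with a window held it (6.25%). The longer form TGATGNAAT, which overlaps the core, was present in Aars, Gars and Iars, or 3 of 12 cytosolic genes (25.0%), and in 1.08% of all genes with a window. The motif was chosen with earlier results of these data known, so its split by call is a description and no independent evidence. These are matches of letters, and binding was not measured.

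**Figure D3:**
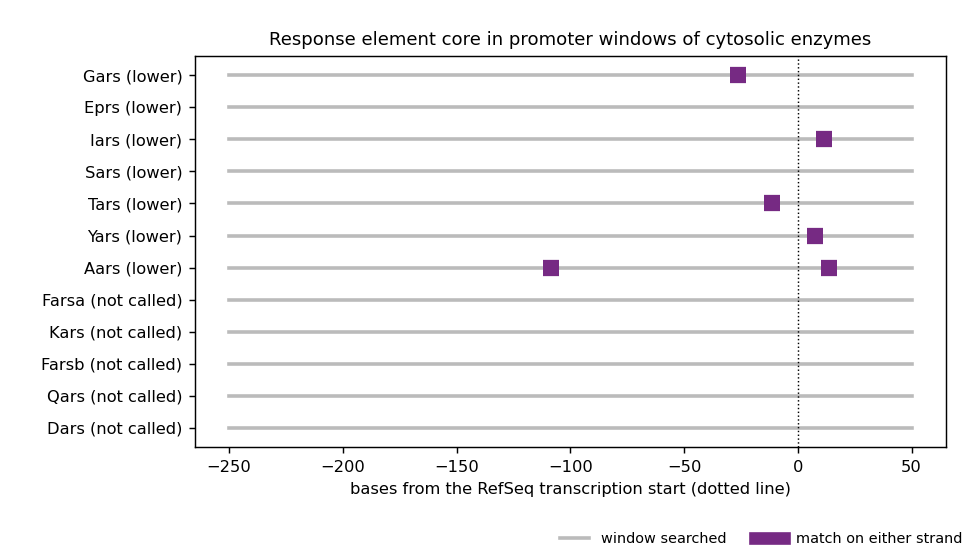
Positions of the core TGATGNAA on either strand (purple) in the promoter windows of the 12 cytosolic genes with a RefSeq window, as bases from the transcription start (dotted line), with the edgeR call in brackets. The 5 genes with a match are among the 7 called lower, and all but the upstream Aars match lie within 30 bases of the start.

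Transcripts of nearly all mitochondrial synthetases were not called. Of 16 genes, 0 were called lower, 1 was called higher and 15 did not pass the test, against 5.18% lower and 5.87% higher in the whole table. At an unadjusted p below 0.05, edgeR had 4 lower and 1 higher, and adjusted counts were 0 and 1 with DESeq2 and 1 and 1 with limma-voom. The median log2 fold change was -0.10, from -0.27 to 0.74, and 12 of 16 were negative. All GSK126 samples lay below all DMSO samples in 5 genes and above them in 3, and the groups overlapped in 8. In the whole table the shares were 16.8% below and 17.6% above. Precision was lower than for the cytosolic set, with a median standard error of 0.09 at a median of 22.3 CPM in DMSO cells, against 0.05 at 191 CPM. The 95% intervals of 9 of the 16 still held the cytosolic median, those of the other 7 lay above it, and 11 of 16 held 0. The difference between both sets was not tested as such.

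Pars2, the mitochondrial prolyl enzyme (chromosome 4, 106651069 to 106655282), was the only member called higher. It had 7.12, 7.68 and 7.60 CPM in GSK126 samples, against 4.48, 4.20 and 4.74 CPM in DMSO samples, from at most 113 reads per library with GSK126 and 59 to 64 with DMSO. It rose 1.67-fold (log2 fold change 0.74, SE 0.12, 95% interval 0.46 to 1.02, edgeR adjusted p = 0.0116), and every GSK126 sample was above every DMSO sample. Pars2 was also the least abundant member per length, at 1.17 ± 0.0430 FPKM in GSK126 cells and 0.699 ± 0.0404 in DMSO cells (SD, n = 3). The call ended without DMSO replicate 1 (adjusted p = 0.0505). Its cytosolic counterpart Eprs fell.

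Tars2, the mitochondrial threonyl enzyme (chromosome 3, 95739976 to 95760206), had 45.9, 43.0 and 44.7 CPM in GSK126 samples and 54.0, 50.3 and 53.0 CPM in DMSO samples. The groups were apart, but the log2 fold change of -0.23 (SE 0.06) missed the threshold (edgeR adjusted p = 0.0549), and limma-voom put it at 0.0495. Hars2, the histidyl enzyme, had 21.3, 19.4 and 20.4 CPM in GSK126 samples and 22.9, 25.4 and 25.2 CPM in DMSO samples (log2 fold change -0.27, SE 0.08, adjusted p = 0.0807). Hars2 and Hars lie head to head and share 195 bp of exons, so reads may pass between them, and their summed counts had a log2 fold change of -0.07 (SE 0.04, adjusted p = 0.310). Mars2, the methionyl enzyme, had 33.2, 36.0 and 36.5 CPM in GSK126 samples and 41.3, 40.2 and 38.8 CPM in DMSO samples (log2 fold change -0.19, SE 0.07, adjusted p = 0.131).

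Apart from Pars2, none of the mitochondrial partners of the 8 cytosolic genes with the smallest p passed the edgeR test. Nars2, the asparaginyl enzyme, had 12.4, 11.6 and 11.99 CPM in GSK126 samples and 11.4, 7.97 and 9.93 CPM in DMSO samples (log2 fold change 0.30, SE 0.14, edgeR adjusted p = 0.218), above all DMSO samples but with a wide interval of -0.03 to 0.62. Without DMSO replicate 2, its lowest sample, the log2 fold change was 0.17. Ears2, the glutamyl enzyme, had 12.5, 10.7 and 11.2 CPM in GSK126 samples and 12.1, 14.9 and 11.6 CPM in DMSO samples. The groups overlapped, and the log2 fold change was -0.17 (SE 0.13), or -0.048 without DMSO replicate 2. Ears2 shares 89 bp of exons with Ubfd1, which has more reads than it.

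Rars2, the arginyl enzyme, had 52.0, 51.9 and 53.5 CPM in GSK126 samples and 53.0, 60.2 and 53.1 CPM in DMSO samples, where DMSO replicate 2 alone stood higher. Lars2, the leucyl enzyme, had 34.0, 31.1 and 27.5 CPM in GSK126 samples and 31.2, 33.0 and 34.2 CPM in DMSO samples. Sars2, the seryl enzyme, had 13.4, 10.9 and 11.8 CPM in GSK126 samples and 13.7, 12.7 and 14.2 CPM in DMSO samples. The groups overlapped in all 3 of these genes, with log2 fold changes of -0.08 (SE 0.07), -0.09 (SE 0.09) and -0.16 (SE 0.11). Single libraries moved these by over 1.5 times, to -0.017 for Rars2 without DMSO replicate 2, to -0.013 and -0.16 for Lars2 without GSK126 replicate 3 or 1, and to -0.10 and -0.25 for Sars2 without GSK126 replicate 2 or 1. Iars2, the isoleucyl enzyme, had 99.3, 99.0 and 96.2 CPM in GSK126 samples and 104, 108 and 106 CPM in DMSO samples, which did not overlap (log2 fold change -0.11, SE 0.04, adjusted p = 0.167). It shares 2034 bp of exons with Rab3gap2.

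Of the other 6 mitochondrial genes, Aars2 (alanine) averaged 21.8 ± 0.733 CPM in GSK126 cells and 20.04 ± 0.744 CPM in DMSO cells, and Cars2 (cysteine) 24.2 ± 1.73 CPM in GSK126 cells and 27.8 ± 1.61 CPM in DMSO cells (SD, n = 3). In both genes the groups did not overlap, at log2 fold changes of 0.12 (SE 0.07) for Aars2 and -0.20 (SE 0.09) for Cars2. Cars2 shares 422 bp of exons with Naxd. For Vars2 (valine), Fars2 (phenylalanine) and Yars2 (tyrosine) the groups overlapped, with log2 fold changes of -0.02 (SE 0.07), -0.09 (SE 0.13) and -0.22 (SE 0.12). Fars2 shares 115 bp of exons with Lyrm4. Without DMSO replicate 1, the value for Yars2 was -0.11. Wars2 (tryptophan) varied most within groups, with 7.47, 7.95 and 16.2 CPM in GSK126 samples and 8.23, 6.47 and 11.3 CPM in DMSO samples. Replicate 3 of each group held the highest Wars2 value, and the log2 fold change was 0.28 (SE 0.34) with all samples and -0.17 without GSK126 replicate 3.

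Set amino acid by amino acid within each library, the FPKM of the cytosolic enzyme was divided by that of its mitochondrial counterpart. There were 17 pairs, with Eprs set against both Ears2 and Pars2, and Farsa and Farsb each against Fars2. All GSK126 samples lay below all DMSO samples in 10 pairs and above them in 1, and the groups overlapped in 6. The mean log2 ratio was lower in GSK126 samples in 16 pairs, with a median difference of -0.25. That count was 14 without DMSO replicate 1, where both phenylalanine pairs were no longer lower, and 15 without GSK126 replicate 3, where the methionine pair was not. No test was made of the ratios. A ratio within a library does not depend on library size, but it holds the counting error of the scarcer mitochondrial gene.

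The largest difference was in the proline pair, where Eprs to Pars2 stood at 19.2, 16.8 and 18.2 in GSK126 samples and 41.4, 44.3 and 37.3 in DMSO samples (difference of mean log2 ratio -1.18). In the asparagine pair, Nars to Nars2 stood at 102.6, 114 and 101.04 in GSK126 samples and 154, 224 and 179 in DMSO samples (-0.80), so the DMSO samples were both higher and more spread. For alanine the ratio of Aars to Aars2 was 10.8, 10.2 and 10.1 in GSK126 samples and 13.6, 13.7 and 14.3 in DMSO samples (-0.42). These 3 pairs were separated in every sample. The mitochondrial member was itself called higher in the proline pair, and it had a positive log2 fold change without a call in the pairs for asparagine and alanine.

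The leucine, arginine and isoleucine pairs differed by -0.39, -0.36 and -0.33 in mean log2 ratio, and those of Eprs to Ears2, serine, valine and threonine by -0.28, -0.25, -0.20 and -0.14, all without overlap. In the cysteine, tyrosine, methionine and tryptophan pairs and in both phenylalanine pairs the groups overlapped. The histidine pair had a higher mean log2 ratio with GSK126, with all libraries and with any of them left out, with Hars to Hars2 at 14.97, 16.3 and 15.8 in GSK126 samples and 14.4, 13.0 and 12.6 in DMSO samples (0.24), and this is the pair that shares exons.

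**Figure D4:**
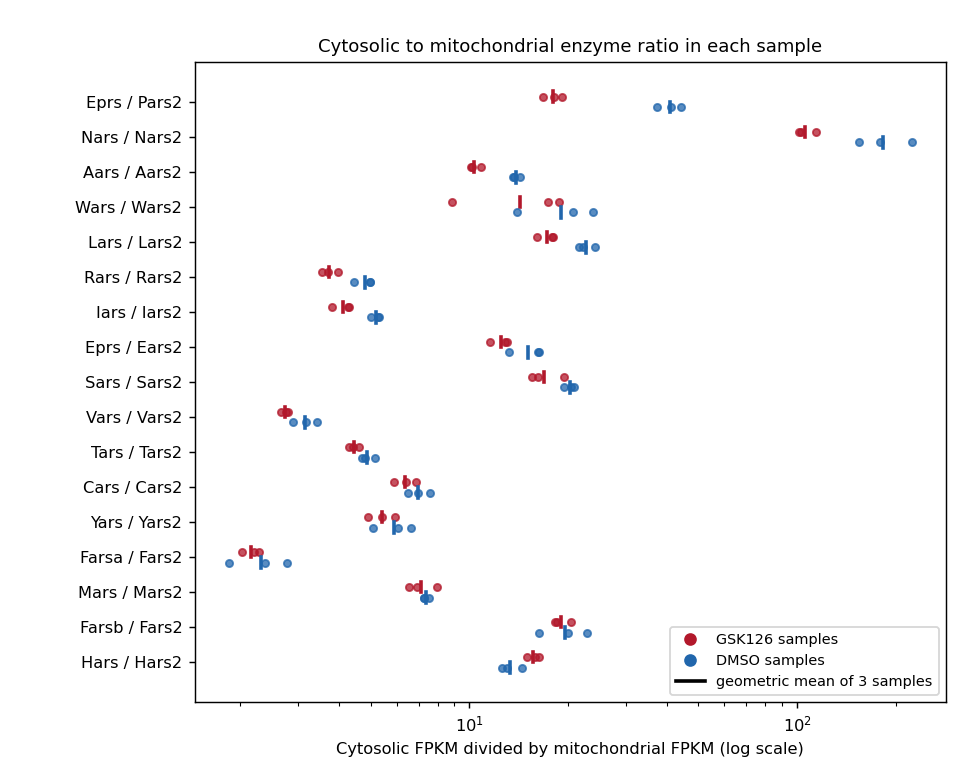
Ratio of cytosolic to mitochondrial FPKM for 17 enzyme pairs (log axis), with GSK126 samples in red above DMSO samples in blue and bars at the geometric mean of 3 samples. Pairs are ordered from the most negative difference at the top, Eprs to Pars2, to the positive one at the bottom, Hars to Hars2.

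Summed over its members, the cytosolic set took 0.421%, 0.422% and 0.402% of all gene counts in GSK126 samples, against 0.529%, 0.523% and 0.523% in DMSO samples. The means were 0.415% ± 0.0107 with GSK126 and 0.525% ± 0.00359 with DMSO (SD, n = 3), a gap many times the spread of either group. The mitochondrial set took 0.0465%, 0.0454% and 0.0454% in GSK126 samples and 0.0488%, 0.0490% and 0.0484% in DMSO samples. These groups did not overlap either, but lay closer together, at 0.0458% ± 0.000650 with GSK126 and 0.0487% ± 0.000294 with DMSO. The scaffold genes took 0.0122%, 0.0114% and 0.0111% in GSK126 samples and 0.0131%, 0.0124% and 0.0131% in DMSO samples.

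**Figure D5:**
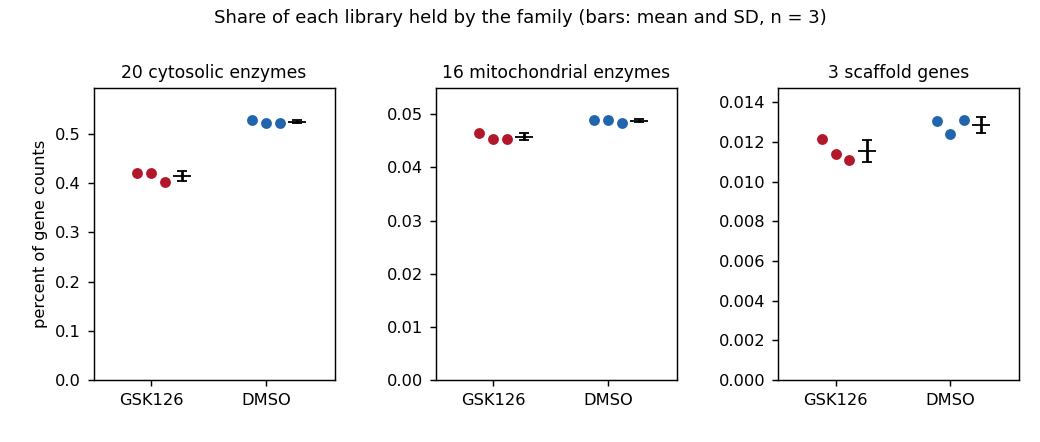
Share of each library's gene counts (percent, axes from 0) held by the cytosolic, mitochondrial and scaffold sets, with 1 point per sample and bars for mean and SD (n = 3 per group). GSK126 samples lie at 0.402% to 0.422% and DMSO samples at 0.523% to 0.529% for the cytosolic set.

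None of the 3 scaffold genes of the complex passed the edgeR test, and 5 of its 8 enzyme genes were called lower. The shares over all tested genes were 5.18% lower and 5.87% higher. Whether the scaffold and enzyme genes differ was not tested. DESeq2 and limma-voom called 0 of the scaffold genes too, and at an unadjusted p below 0.05 edgeR had 1 lower, Eef1e1. Aimp1, whose product p43 binds the arginyl enzyme, had 57.7, 52.1 and 50.1 CPM in GSK126 samples and 56.4, 56.3 and 63.1 CPM in DMSO samples (log2 fold change -0.14, SE 0.08, edgeR adjusted p = 0.316). Aimp2, the core scaffold p38, had 22.1, 24.9 and 20.8 CPM in GSK126 samples and 24.3, 21.8 and 22.9 CPM in DMSO samples (log2 fold change -0.03, SE 0.09, adjusted p = 0.892). The groups overlapped in both, and both share exons with a neighbour, Aimp1 163 bp with Tbck and Aimp2 487 bp with Eif2ak1. Without DMSO replicate 3, the value for Aimp1 was -0.082. Eef1e1, whose product p18 binds the methionyl enzyme, had 41.0, 37.0 and 40.4 CPM in GSK126 samples and 50.1, 46.0 and 46.3 CPM in DMSO samples. These groups were apart, but the log2 fold change of -0.26 (SE 0.07) did not pass (edgeR adjusted p = 0.0585). The change was no smaller than that of Mars (-0.23), an enzyme gene of the complex that was called.

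Genes that work next to the synthetases were read from the same fit. In it, 5.18% of all tested genes were called lower and 5.87% higher. Of 12 other charging and editing genes, among them the amidotransferase that makes mitochondrial glutaminyl-tRNA and the enzymes of selenocysteine charging, 0 were called in either direction by edgeR, DESeq2 or limma-voom, with a median log2 fold change of 0.00. At an unadjusted p below 0.05 edgeR had 2 higher and 0 lower. Of 13 genes of tRNA maturation and export, 2 were called lower and 0 higher by edgeR, and 1 lower by DESeq2. Xpot, the nuclear exporter of tRNAs, averaged 149 ± 6.08 CPM in GSK126 cells and 237 ± 3.41 CPM in DMSO cells, and fell more than any synthetase (log2 fold change -0.67, SE 0.05, edgeR adjusted p = 0.000538). Pus1, a tRNA pseudouridine synthase, averaged 28.6 ± 1.78 CPM in GSK126 cells and 35.4 ± 1.34 CPM in DMSO cells (adjusted p = 0.0435), a call that ended with any of the 6 libraries left out (adjusted p of up to 0.131).

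Downstream of charging, 1 of 8 tested genes of cytosolic elongation and termination was called lower and 0 higher. The shares over all tested genes were 5.18% and 5.87%. The called gene was the release factor gene Etf1, with 319 ± 11.99 CPM in GSK126 cells and 407 ± 7.64 CPM in DMSO cells (SD, n = 3; log2 fold change -0.35, edgeR adjusted p = 0.00427). Eef1a1, which carries charged tRNA to the ribosome, did not pass the test (log2 fold change -0.04, SE 0.05). Of 9 mitochondrial translation factors 0 were called in either direction by edgeR, DESeq2 or limma-voom (2 lower at an unadjusted edgeR p below 0.05), and the most abundant, the elongation factor gene Gfm1, averaged 133 ± 0.450 CPM in GSK126 cells and 147 ± 5.23 CPM in DMSO cells (adjusted p = 0.0830).

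Genes that sense uncharged tRNA or act after it were lower in part, with 3 of 6 tested called lower and 0 higher. Eif2ak4, the kinase GCN2 that binds uncharged tRNA, did not pass (log2 fold change -0.07, SE 0.10). Atf4 averaged 251 ± 16.1 CPM in GSK126 cells and 320 ± 28.1 CPM in DMSO cells (SD, n = 3; log2 fold change -0.35, SE 0.08, edgeR adjusted p = 0.0314). The Atf4 call was kept without DMSO replicate 3 and ended without any other single library (adjusted p of up to 0.108). Sesn2, a leucine sensor, averaged 52.2 ± 1.77 CPM in GSK126 cells and 66.8 ± 0.341 CPM in DMSO cells (log2 fold change -0.35, adjusted p = 0.00982). Eif2s1, the α subunit of eIF2, fell by 0.26 on the log2 scale (adjusted p = 0.0152), a call that ended without DMSO replicate 2 or 3 or GSK126 replicate 1 (adjusted p of up to 0.0664).

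Of 20 known ATF4 targets outside the family, 17 were called lower and 0 higher, with a median log2 fold change of -0.58. Over all tested genes, 5.18% were called lower and 5.87% higher. The 3 not called were Ddit4 (log2 fold change 0.24), Nupr1 (-0.22) and Vldlr (-0.11). At an unadjusted edgeR p below 0.05, 17 of the list were lower and 1 higher, Ddit4. The list was put together with the fall of several of its genes already known, so its count is no independent evidence. The largest changes were those of Slc7a11, the cystine importer, at -1.72, Trib3 at -1.28, Atf5 at -1.14 and Chac1 at -1.04. Each change of these 4 genes was larger than the change of any of the 39 members. The calls of Ddit3 and Pycr1 ended without any single library other than GSK126 replicate 3 for Ddit3 and other than GSK126 replicate 2 for Pycr1 (adjusted p of up to 0.132), and the other 15 were kept.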

How the data were processed

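RNA-seq was analysed for 3 GSK126 and 3 DMSO samples of B16F10 cells, grouped by their treatment label. Per the file headers, the deposited files are unnormalised counts of reads by gene, 1 file per sample. The authors also deposited FPKM, 1 table for all samples. Per the submitters' processing notes, base calling used CASAVA 1.8 and alignment HISAT2, with GRCm38.p4/mm10 as build. The sources used here name no counting tool, strand setting or annotation release.

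The counts were fitted in R 4.3.3 with edgeR 4.0.16 (filterByExpr, TMM, glmQLFit and glmQLFTest, group only), with Benjamini-Hochberg adjustment over 13601 genes and a threshold of 0.05. Standard errors come from the F statistic. The biological coefficient of variation was 0.119. FPKM served for levels between genes and for ratios. The procedure was tested on simulated data. Between replicates of a group, squared deviations averaged over tested genes were 7.51 to 14.2 times those of counting noise (chi-square per degree of freedom). This is an average, and single genes can lie well away from it.

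The members, the gene lists and the promoter motif were chosen with earlier results of these data known. Values in every sample are printed for the 8 cytosolic and 4 mitochondrial members with the smallest p, the 3 scaffold genes, both members of each pair that one of these belongs to, and the cytosolic gene with the largest p. Of each other list the called genes were named, up to 4 by size of change, or else the most abundant, of which 1 is not reported here. The values per sample of Aars, Cars, Vars and Wars2 fall outside these rules and were added after their values were seen. The same holds for the genes Eif2ak4, Eef1a1, Ddit3, Pycr1, Ddit4, Nupr1, Vldlr and C77080. Exon sharing was read from GENCODE M21, counting partners with at least 10% as many reads. Promoter windows are those of RefSeq on GRCm38.p6. Alternatives were DESeq2 1.42.0 and its size factors, limma 3.58.1 (voom, and trend on log2 FPKM + 1), no filter, a replicate block, each library left out, and, added after seeing the data, counts summed with an exon-sharing gene.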

Additional observations from a re-analysis of the deposited data

How the results depend on the processing

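The cytosolic count called lower, 13, was 9 with the replicate block, 11 without the filter, 12 with DESeq2 and with limma-trend on FPKM, 13 with limma-voom, and 10 to 11 with single libraries left out. The cytosolic median log2 fold change stayed between -0.33 and -0.27. The mitochondrial count called lower, 0, was 1 with limma-voom (Tars2). The mitochondrial count called higher, 1, was 0 with the replicate block and 0 to 1 with single libraries left out. The mitochondrial median, -0.10, ran from -0.13 to -0.091 with single libraries left out. The calls over all genes, 1503, numbered 899 without the filter, 408 with the replicate block and 529 to 1243 with single libraries left out. Same-numbered samples did not deviate together over all tested genes (correlations 0.01, 0.01 and -0.06), and the labels state no pairing. These correlations cannot exclude a pairing that acts on part of the genes. Under the replicate block Yars (edgeR adjusted p = 0.0515), Cars, Mars, Vars and Pars2 lost their calls. The promoter count of 5 was 3 with the longer motif.

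Under the alternatives listed at the outset, 34 of 39 members kept their direction. With single libraries left out, log2 fold changes ran across 0 for Qars (-0.048 to 0.048; above 0 without DMSO replicate 1 or GSK126 replicate 3), Fars2 (-0.20 to 0.047; without DMSO replicate 3), Vars2 (-0.049 to 0.027; without DMSO replicate 1 or GSK126 replicate 3), Wars2 (-0.17 to 0.52; below 0 without GSK126 replicate 3) and Aimp2 (-0.10 to 0.031; above 0 without DMSO replicate 1 or GSK126 replicate 3). Summed with the gene that shares their exons, an alternative added after seeing the data, Aimp2 gave 0.050 and Yars 0.0081. Such a sum also holds the partner's own change, so it does not show how shared reads were assigned. Exon sharing leaves 10 members uncertain, 3 cytosolic, 5 mitochondrial and 2 scaffold genes. The mitochondrial genes had fewer reads, for Pars2 59 to 113 per library.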
